A study of Mus musculus with 6 samples.

Results

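The 6 genes described here encode the enzymes that write and oxidise DNA methylation: the methyltransferases Dnmt1, Dnmt3a and Dnmt3b and the dioxygenases Tet1, Tet2 and Tet3. These genes were followed on a mouse tiling array through all 63 array positions inside 6 fixed mm9 windows, of 174638 positions outside the controls. In these windows, runs of at least 3 positions whose starts lay no more than 500 bp apart formed 9 of the 22574 regions of the array. Dnmt3a had 3 regions, Dnmt1 had 2, and each of the other genes had 1. The array files pair no position with a gene, so membership rests on the windows alone. No mm9 annotation was used here, and the distance of a region to a transcription start, or its place in exon or intron, is therefore not given.

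The tissue was hypothalamus, the part of the brain that governs feeding and energy balance, from mouse offspring aged 16 weeks. One group of 3 arrays came from offspring of dams treated with inulin, a fermentable plant fibre, and the other group of 3 from offspring of obese dams, also labelled with a high fat diet. The labels give neither the strain, nor the litters of the offspring, nor what else the inulin dams were fed. Every p-value here thus measures the spread between these samples alone. On every array, DNA enriched with an antibody against methylated cytosine (MeDIP) was labelled in Cy5 and the input DNA of the same sample in Cy3. The values below are log2 ratios of MeDIP over input, set to a median of 0 on each array, and differences are inulin minus obesity.

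Dnmt1 is the maintenance enzyme, which copies methylation to the new strand after replication and is also present in neurons that no longer divide. Dnmt3a and Dnmt3b methylate DNA that carries no mark, and Dnmt3a is the main one of this pair in the postnatal brain. The Tet enzymes oxidise 5-methylcytosine to 5-hydroxymethylcytosine, a base that is abundant in neurons, and so start its removal. CpG islands are stretches rich in the CG pair, and most of those at promoters are unmethylated in normal tissue. The ratio is a relative enrichment and not a percentage of methylated molecules, and it also depends on how many CG pairs a fragment holds, so it is compared only between groups at the same place.

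The promoters of the members differ widely in their CG pairs, which the antibody can bind when their cytosine is methylated. RefSeq (GRCm38.p6) lists 10 promoters for the 6 genes, each 300 bases long, and the CG pairs stand in capitals below. The 4 genes whose regions turn up most in the results are shown, with the first listed Dnmt1 start, the one poorest in CG pairs, as a contrast. These coordinates belong to GRCm38.p6, while all array positions are in mm9, and neither was converted into the other.
Dnmt3a, first start, chr12:3806730-3807029, plus strand: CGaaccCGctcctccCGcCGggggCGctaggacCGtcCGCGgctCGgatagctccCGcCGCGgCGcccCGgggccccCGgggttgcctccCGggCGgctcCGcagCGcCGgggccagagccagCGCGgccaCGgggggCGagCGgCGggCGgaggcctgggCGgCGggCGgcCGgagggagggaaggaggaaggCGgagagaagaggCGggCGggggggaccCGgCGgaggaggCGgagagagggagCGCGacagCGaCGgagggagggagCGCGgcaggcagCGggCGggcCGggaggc
Dnmt3b, chr2:153649199-153649498, plus strand: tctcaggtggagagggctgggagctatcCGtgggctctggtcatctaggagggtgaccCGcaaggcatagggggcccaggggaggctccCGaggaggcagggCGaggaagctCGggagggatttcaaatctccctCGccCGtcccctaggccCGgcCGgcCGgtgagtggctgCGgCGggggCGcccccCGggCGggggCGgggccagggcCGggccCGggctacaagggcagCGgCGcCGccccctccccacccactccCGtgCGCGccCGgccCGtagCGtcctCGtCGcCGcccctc
Tet2, chr3:133544341-133544640, minus strand: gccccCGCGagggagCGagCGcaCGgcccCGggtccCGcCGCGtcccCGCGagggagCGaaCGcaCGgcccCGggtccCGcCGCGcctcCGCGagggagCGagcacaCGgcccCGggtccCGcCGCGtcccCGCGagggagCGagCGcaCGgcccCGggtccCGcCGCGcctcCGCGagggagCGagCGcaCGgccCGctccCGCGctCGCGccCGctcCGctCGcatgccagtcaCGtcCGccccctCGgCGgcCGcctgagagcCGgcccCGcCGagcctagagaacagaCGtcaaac
Tet3, chr6:83441629-83441928, minus strand: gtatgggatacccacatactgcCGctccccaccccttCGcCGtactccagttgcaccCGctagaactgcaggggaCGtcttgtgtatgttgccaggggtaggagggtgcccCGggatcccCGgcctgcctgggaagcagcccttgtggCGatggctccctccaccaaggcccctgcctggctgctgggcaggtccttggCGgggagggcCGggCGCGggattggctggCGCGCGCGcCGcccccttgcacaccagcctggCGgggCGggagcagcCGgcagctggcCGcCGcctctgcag
Dnmt1, first start, chr9:20959839-20960138, minus strand: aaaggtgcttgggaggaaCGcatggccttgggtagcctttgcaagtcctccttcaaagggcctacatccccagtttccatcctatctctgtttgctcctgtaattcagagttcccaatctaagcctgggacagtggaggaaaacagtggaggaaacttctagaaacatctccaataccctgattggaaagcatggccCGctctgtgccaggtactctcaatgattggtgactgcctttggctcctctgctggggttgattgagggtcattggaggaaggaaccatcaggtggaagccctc

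The Tet2 promoter held 57 CG pairs, more than 99.8% of the 32851 mouse promoters in the same table, whose median was 7. The first Dnmt3a promoter held 46 and the second, 180 bases further on, 47. The Dnmt3b promoter held 30, that of Tet3 22 and that of Tet1 17. Within Dnmt1 the count was 2 at the first start, 12 at the second and 33 at the third. The third Dnmt3a promoter, of a start 84764 bases beyond the first, held 18. In mm9, the centres of the first and the third Dnmt3a region on the array lay 84830 bp apart, a spacing close to that of these starts. A second Dnmt3a region lay 56135 bp beyond the first, where the table lists no start. The centres of the 2 Dnmt1 regions lay 7086 bp apart, against 6909 and 7265 bases from the first Dnmt1 start to the other two. The array positions of the 9 regions were 45.2 to 48.3 bases long on average (median 45.9), against a median of 48.5 and quartiles of 46.7 and 51.0 over all regions.

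No region of the 6 genes passed the threshold of 0.05 for the adjusted p (limma over all 22574 regions, Benjamini-Hochberg). Over the whole array 1675 regions passed, which is 7.42% of those tested (5.61% higher and 1.81% lower in the inulin group). That excess of higher regions depended on the processing: 1267 were higher and 408 lower with median centring, 522 and 480 on an equal scale, 251 and 246 with quantile normalization, 1545 and 1245 with loess, 248 and 334 in the authors' deposited table, and 935 and 1043 after normexp correction of the background. At an unadjusted p under 0.05 there were 3 of 9 member regions (33.3%), those of Dnmt3b, of Tet2 and the first of Dnmt3a, against 28.6% of all regions. All 3 of them were lower in the inulin group. The groups did not overlap at 4 of the 9 regions (44.4%), against 35% over all regions. The difference was below 0 at 6 regions and above 0 at 3, with a median of -0.049 and a range from -0.29 to 0.13. The median over all regions was 0.033, with quartiles of -0.083 and 0.17. Among single positions, 3 of 62 tested passed the adjusted threshold (4.84%), against 8.21% of all 170019 positions tested. Of these 3, 2 were higher in the inulin group, where 5.12% of all positions passed in that direction, and 1 was lower, where 3.08% did. One member position, in the first Dnmt3a region, had values on too few obesity arrays to be tested.

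The 6 arrays bear on every value that follows. No slide, as given by the scan identifier in the file headers, held both groups, so slide and group cannot be told apart. The spread of ratios differed as well. Its interquartile range was 1.37, 1.39 and 1.38 on the inulin arrays, against 1.62, 1.89 and 1.69 on the obesity arrays, all of which were wider. Per array, 94.4% to 96.4% of the positions had an input signal well above background, and 77.3% to 85.7% a MeDIP signal. Of the 63 member positions, 55 (87.3%) were well above background in both channels on all 6 arrays, and no member spot was saturated. The number of arrays limits the precision.

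**Figure D1:**
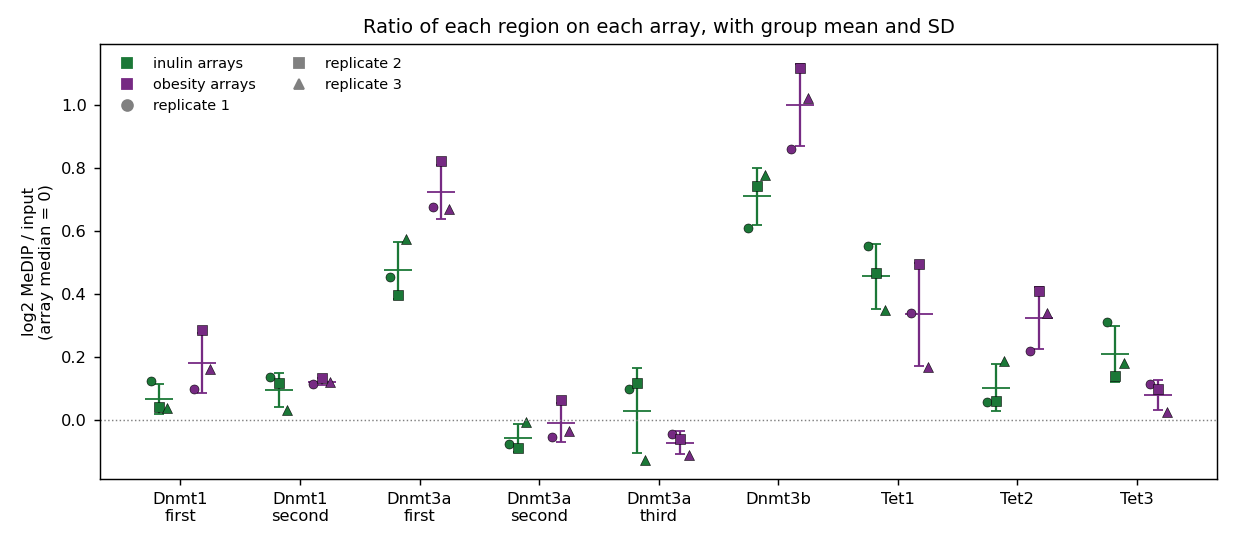
Log2 MeDIP over input of the 9 regions on each of the 6 arrays, with inulin in green left of obesity in purple, a marker per replicate, and the group mean and SD (n = 3). The groups were apart at the first Dnmt3a region, at Dnmt3b, at Tet2 and at Tet3, and overlapped at the other 5.

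The de novo methyltransferase gene Dnmt3b had the largest difference among the 9 regions with median centring, and its ratio was lower in the inulin group. It was not the largest on an equal scale (Tet1), with both channels above background (the first Dnmt3a region) or with the median of the positions (Tet2), among other settings. Its region, chr2:153473893-153475501 in mm9, held 8 positions. The ratio was 0.61, 0.74 and 0.78 on the inulin arrays, against 0.86, 1.12 and 1.02 on the obesity arrays. All 3 inulin arrays lay below all 3 obesity arrays. The means were 0.71 ± 0.089 for inulin and 1.0 ± 0.13 for obesity (SD, n = 3 each), a difference of -0.29 (SE 0.088, limma adjusted p = 0.0738), which did not pass the threshold. Of the 8 positions, 7 had a lower mean in the inulin group, and 5 of them had an unadjusted p under 0.05, as 30.1% of all positions did. At the position with the lowest p, chr2:153474565-153474609, the MeDIP signal was above background on 0 of 3 inulin arrays and 1 of 3 obesity arrays. The input signal there was above background on 2 of 3 inulin arrays and 1 of 3 obesity arrays, so no size is given. At chr2:153474369-153474413, which was above background on all arrays, the ratio was 0.054, 0.34 and 0.44 on the inulin arrays, against 0.51, 0.79 and 0.99 on the obesity arrays, a difference of -0.49 (SE 0.17, limma adjusted p = 0.104).

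One spot of the Dnmt3b region was left out as an outlier on 1 array, so the region was also taken over the 7 positions measured on every array, a setting chosen after seeing the data. The ratio was then 0.45, 0.63 and 0.67 on the inulin arrays, against 0.86, 1.02 and 0.94 on the obesity arrays, and the difference of -0.36 (SE 0.083, limma adjusted p = 0.0315) passed the threshold, as did 2344 of all regions in that setting. The 7 positions include the one that was dim in both channels. Over these 7 positions the MeDIP signal differed by -0.16 (SE 0.092, limma adjusted p = 0.284) and the input signal by 0.22 (SE 0.075, limma adjusted p = 0.0655). The input signal was -0.22, -0.29 and -0.11 on the inulin arrays, against -0.38, -0.47 and -0.42 on the obesity arrays, with no overlap. On the mean of these positions the difference lay in both channels, with the larger part in the input, but the positions were uneven. The input differed by 0.996 at chr2:153474102-153474147 and by -0.17 to 0.35 at the others. The MeDIP signal differed by -0.55 to 0.53, and was lowest at chr2:153474369-153474413, where the input differed by -0.048.

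The other settings start again from the Dnmt3b region with all spots that were not outliers, where the difference was -0.29. With positions kept only where both channels were above background it was -0.22 (adjusted p = 0.236), and with normexp background correction -0.17 (adjusted p = 0.109). With the arrays brought to an equal scale it was -0.096 (adjusted p = 0.477), and with slide as a random block -0.30 (adjusted p = 0.219). Obesity arrays 1 and 3 were scanned on a day with no inulin array, so both fits that account for scan day set 3 inulin arrays against obesity array 2 alone and count as 1 contrast. In that contrast the Dnmt3b difference was -0.41 with the day as a block and -0.41 within the first day. The part of the array scale and of the slide in the result was not tested.

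Dnmt3a, the de novo enzyme of the postnatal brain, was lower in the inulin group at the first of its 3 regions, without passing the threshold. This region, chr12:3805687-3807152, held 7 positions, and its ratio was 0.45, 0.40 and 0.57 on the inulin arrays, against 0.68, 0.82 and 0.67 on the obesity arrays. The groups did not overlap. The means were 0.47 ± 0.091 for inulin and 0.72 ± 0.087 for obesity (SD, n = 3 each), a difference of -0.25 (SE 0.081, limma adjusted p = 0.0873). The second region, chr12:3861748-3863361 with 6 positions, had a difference of -0.049 (SE 0.071, limma adjusted p = 0.685). The third, chr12:3890451-3892048 with 7 positions, had ratios of 0.096, 0.12 and -0.13 on the inulin arrays, against -0.044, -0.060 and -0.11 on the obesity arrays. There 2 inulin arrays were above all obesity arrays and the other inulin array was below them, and the difference was 0.10 (SE 0.084, limma adjusted p = 0.458). The differences of the 3 regions were not tested against each other.

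Within the first Dnmt3a region the difference sat at a pair of positions rather than across it. The position chr12:3806093-3806137 passed the threshold and fell in the inulin group. Its ratio was 0.98, 1.06 and 0.70 on the inulin arrays, against 1.67, 1.71 and 1.55 on the obesity arrays, with means of 0.91 ± 0.19 for inulin and 1.64 ± 0.083 for obesity (SD, n = 3 each) and a difference of -0.73 (SE 0.13, limma adjusted p = 0.0275). The MeDIP signal there, relative to the array median, was 0.32, 0.51 and 0.43 on the inulin arrays, against 0.98, 1.16 and 1.20 on the obesity arrays, a difference of -0.69. The input signal differed by 0.053, so nearly all of the difference lay in the MeDIP channel. Further downstream, the position chr12:3806736-3806780 had a difference of -0.61 (SE 0.17, limma adjusted p = 0.0715). There most of it lay in the input signal, which differed by 0.41, while the MeDIP signal differed by -0.22. Between them, the position 205 bp downstream of the called one had -0.12, and the remaining 3 tested positions lay between -0.022 and 0.010.

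The call at this Dnmt3a position held its direction in all 18 alternatives and passed the threshold in 9 of them, of which 1 is the fit with scan day as a block. Without inulin array 1, 2 or 3 it had an adjusted p of 0.0909, 0.0851 or 0.0682, and without obesity array 1 of 0.0662. With the arrays on an equal scale the difference was -0.45 (adjusted p = 0.107), and with slide as a random block -0.74 (adjusted p = 0.137). Over the 6 positions of the region measured on every array, the region's difference was -0.25 (SE 0.073, limma adjusted p = 0.0615) in the ratio, -0.34 (SE 0.076, limma adjusted p = 0.0392) in the MeDIP signal and -0.077 (SE 0.080, limma adjusted p = 0.533) in the input signal. That setting was chosen after seeing the data, and 1685 of all regions passed in its MeDIP channel. The MeDIP signal of the region over these positions was 0.29, 0.28 and 0.47 on the inulin arrays, against 0.70, 0.65 and 0.71 on the obesity arrays. Both channels were lower in the inulin group at chr12:3805687-3805734, chr12:3806298-3806342 and chr12:3806530-3806574. There the MeDIP signal differed by -0.51, -0.59 and -0.28 and the input by -0.47, -0.46 and -0.27. The input differed by 0.41 and 0.28 at chr12:3806736-3806780 and chr12:3807108-3807152, so the region's small input difference is a mean of opposite ones. The difference of the region's ratio was -0.11 (adjusted p = 0.398) on an equal scale. Against obesity array 2 alone it was -0.35 with scan day as a block and -0.35 within the first scan day.

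**Figure D2:**
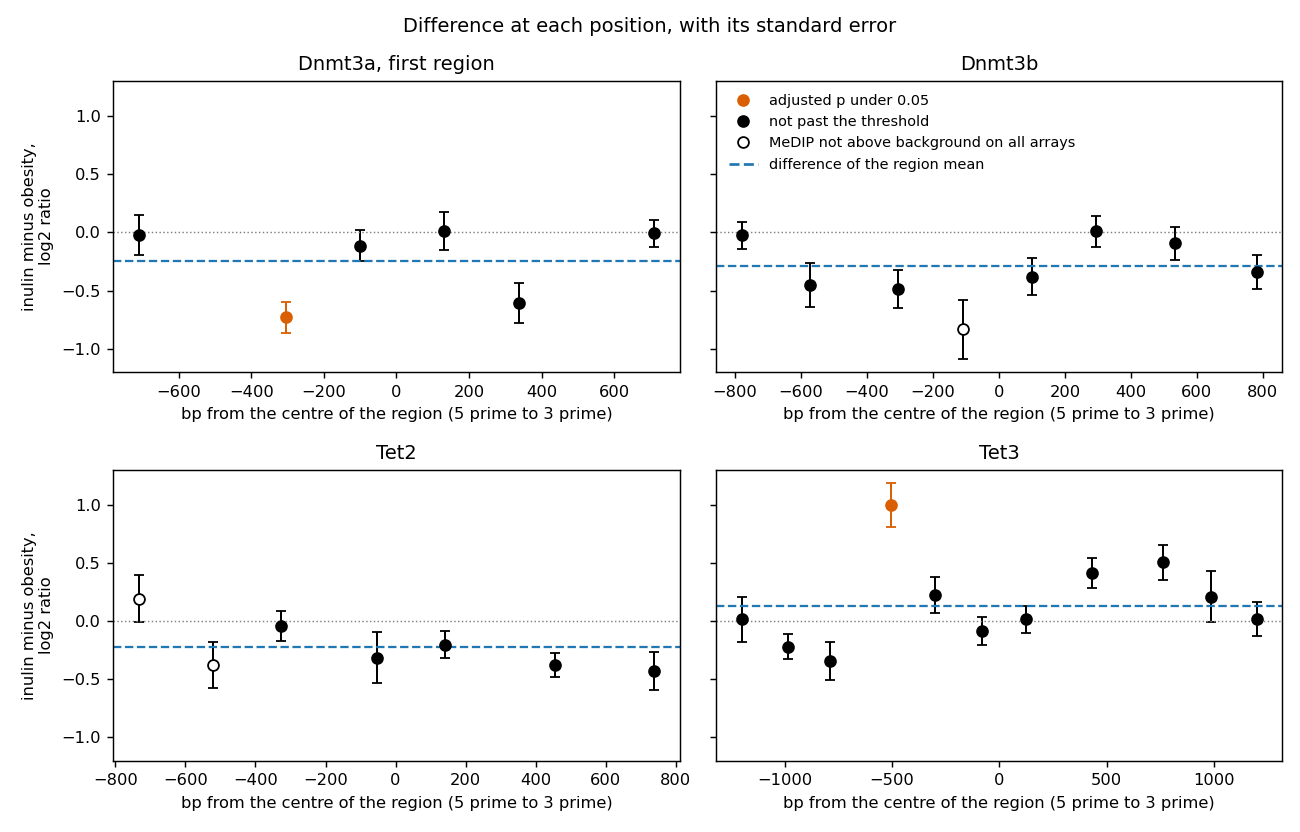
Difference of the log2 ratio, inulin minus obesity, at each tested position of 4 regions against the distance in bp from the region's centre, read from 5′ to 3′ of the gene, with standard errors, the position past the threshold in orange, positions with dim MeDIP signal open, and the region mean dashed. The Dnmt3a difference sat at 2 of 6 positions, Dnmt3b had 7 of 8 and Tet2 6 of 7 positions below 0, and Tet3 had 8 of 11 above 0.

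Neither region of the maintenance gene Dnmt1 passed the threshold, and the groups overlapped in both. The first, counted in the direction of the gene and lying at chr9:20763910-20765586, held 7 positions, of which 5 lay inside the window. Its ratio was 0.12, 0.041 and 0.038 on the inulin arrays, against 0.097, 0.28 and 0.16 on the obesity arrays, and the difference was -0.11 (SE 0.076, limma adjusted p = 0.358). The second, chr9:20756638-20758687, held 9 positions and had ratios of 0.13, 0.12 and 0.031 on the inulin arrays, against 0.11, 0.13 and 0.12 on the obesity arrays. The second region differed by -0.027 (SE 0.068, limma adjusted p = 0.828). Its difference was 0.078 over the 8 positions measured on every array, so its sign was not settled. Its outermost position, chr9:20758628-20758687, passed the threshold (limma adjusted p = 0.0447), but the MeDIP signal there was above background on 0 of 3 inulin arrays and 1 of 3 obesity arrays, and no size is given. In the first region, 1 of the 2 positions beyond the window also passed, and it is not counted among the 62.

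Tet2, which unlike full-length Tet1 lacks a CXXC DNA-binding domain, was lower in the inulin group without passing the threshold. The region, chr3:133206862-133208385, held 7 positions, with ratios of 0.056, 0.059 and 0.19 on the inulin arrays, against 0.22, 0.41 and 0.34 on the obesity arrays. All inulin arrays lay below all obesity arrays, by a narrow margin between the highest inulin and the lowest obesity array. The means were 0.10 ± 0.075 for inulin and 0.32 ± 0.097 for obesity (SD, n = 3 each), a difference of -0.22 (SE 0.080, limma adjusted p = 0.110), and 6 of 7 positions were lower. At chr3:133207147-133207191, the Tet2 position with the lowest p, the ratio was 0.49, 0.54 and 0.45 on the inulin arrays, against 0.88, 0.88 and 0.86 on the obesity arrays. The arrays of each group lay close together there, and the difference was -0.38 (SE 0.10, limma adjusted p = 0.0632). The MeDIP signal at that position differed by -0.023 and the input signal by 0.37, so the difference in ratio there lay in the input channel. The region as a whole was split otherwise. Over its 6 positions measured on every array, the ratio differed by -0.21 (SE 0.074, limma adjusted p = 0.1000). The MeDIP signal differed by -0.15 (SE 0.092, limma adjusted p = 0.314) and the input signal by 0.076 (SE 0.079, limma adjusted p = 0.532).

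Tet1 had the shortest region, chr10:62342278-62342762, with 3 positions. Its ratio was 0.55, 0.47 and 0.35 on the inulin arrays, against 0.34, 0.49 and 0.17 on the obesity arrays. The groups overlapped, and the difference was 0.12 (SE 0.098, limma adjusted p = 0.447). The position with the lowest p, chr10:62342717-62342762, differed by 0.38 (SE 0.18, limma adjusted p = 0.199), and the other two by 0.024 and -0.042. Against obesity array 2 alone, with scan day as a block, the difference of the region turned to -0.040, and within the first scan day it was -0.040.

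Tet3, which neurons express, was the one member whose groups did not overlap with the inulin group on the higher side. Its region, chr6:83390456-83392899, held 11 positions, the most of the 9 regions, and had ratios of 0.31, 0.14 and 0.18 on the inulin arrays, against 0.11, 0.098 and 0.024 on the obesity arrays. The means were 0.21 ± 0.089 for inulin and 0.078 ± 0.048 for obesity (SD, n = 3 each), a difference of 0.13 (SE 0.075, limma adjusted p = 0.283). Of the 11 positions, 8 had a higher mean in the inulin group, but the median difference over the positions was only 0.018. Over the 7 positions measured on every array, the groups overlapped and the difference was 0.085 (SE 0.072, limma adjusted p = 0.451).

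One Tet3 position, chr6:83392157-83392202, passed the threshold and rose in the inulin group. Its ratio was -1.34, -1.49 and -1.65 on the inulin arrays, against -2.40, -2.87 and -2.20 on the obesity arrays. The means were -1.49 ± 0.15 for inulin and -2.49 ± 0.34 for obesity (SD, n = 3 each), with a difference of 0.997 (SE 0.19, limma adjusted p = 0.0295), the largest among the member positions. Both groups lay below the array median, and both channels were above background on all 6 arrays. The MeDIP signal was -0.85, -0.61 and -0.96 on the inulin arrays, against -1.59, -1.76 and -1.71 on the obesity arrays, a difference of 0.88, while the input signal differed by -0.10. The neighbours at chr6:83391953-83391997 and chr6:83392441-83392486 had differences of 0.22 and -0.35. The call held its direction in all 18 alternatives and passed in 10, of which 2 are the scan-day fits. Without inulin array 1, 2 or 3 the adjusted p was 0.107, 0.107 or 0.0657, and without obesity array 1 it was 0.0618. On an equal scale the difference was 0.55 (adjusted p = 0.0768), and with slide as a random block 1.03 (adjusted p = 0.119). Within the first scan day, against obesity array 2 alone, the difference was 1.38.

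**Figure D3:**
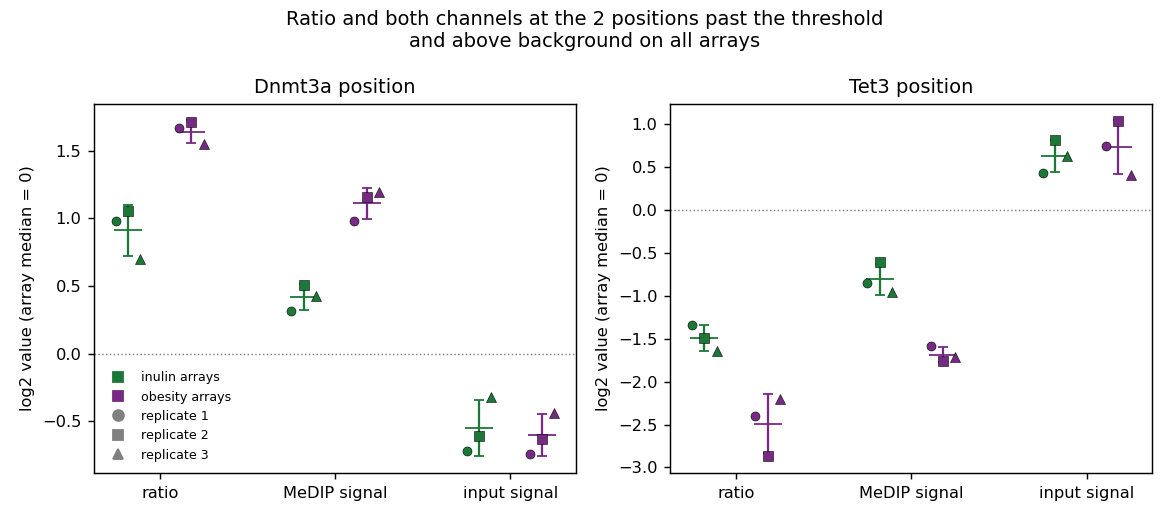
Log2 ratio, MeDIP signal and input signal, each relative to its array median, at the called Dnmt3a and Tet3 positions, with inulin in green left of obesity in purple and the group mean and SD (n = 3). At both positions the groups were apart in the ratio and the MeDIP signal and overlapped in the input signal.

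Another Tet3 position, chr6:83390894-83390938, stood out in its raw brightness. Relative to the array median, its MeDIP signal was 7.37, 7.45 and 7.03 on the inulin arrays, against 3.06 and 4.48 on the obesity arrays, where the value of obesity array 1 was left out as an outlier. Its input signal was 7.49, 7.74 and 7.31 on the inulin arrays, against 3.62 and 5.35 on the obesity arrays. Both channels were thus far higher on the inulin arrays, by 3.51 and 3.03 on the log2 scale, and only 0.0700% of all positions had a larger rise in input. The ratio moved far less, at -0.18, -0.36 and -0.33 on the inulin arrays, against -0.63 and -0.95 on the obesity arrays, a difference of 0.50 (SE 0.15, limma adjusted p = 0.0911). A bright Tet2 position, chr3:133207654-133207698, was also brighter on the inulin arrays, with an input signal of 5.58 and 5.49 on the inulin arrays, against 4.63, 3.92 and 4.38 on the obesity arrays and inulin array 1 left out. At the untested Dnmt3a position, chr12:3805887-3805931, the input signal was 7.38 and 7.44 on inulin arrays 1 and 2, against 6.28 on obesity array 3. Input DNA is not enriched for methylation, so a difference in this channel is not one of MeDIP enrichment.

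Because such bright spots are missing on single arrays, the channels of a region were read over the positions measured on every array. With every spot that was not an outlier, no member region passed the threshold in the MeDIP channel, where 0.253% of all regions did, or in the input channel, where 2.14% did. At an unadjusted p under 0.05 there was 1 of 9 member regions in MeDIP, against 21% of all regions, and there were 2 of 9 in input, against 24.4%. With all such spots, the groups did not overlap at 4 of 9 regions (44.4%) in each channel, against 32% of all regions for MeDIP and 34.2% for input. Over the positions measured on every array, the input groups were apart only at the second Dnmt3a region and at Dnmt3b. In the same setting the MeDIP groups were apart at the second Dnmt1 region and at every Dnmt3a region. Of these, only the third Dnmt3a region was higher in the inulin group. The share of all regions was counted for neither channel in that setting, so nothing is read from how many regions were apart. The Tet3 region, for example, differed by 0.43 in MeDIP and 0.31 in input with all such spots, but by 0.043 and -0.025 over the positions measured on every array. For the Dnmt3a first region the change was from a MeDIP difference of 0.082 with all such spots to -0.34, a turn of sign. The second Dnmt3a region had no spot left out and had differences of -0.18 (SE 0.079, limma adjusted p = 0.257) in MeDIP and -0.11 (SE 0.063, limma adjusted p = 0.317) in input.

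**Figure D4:**
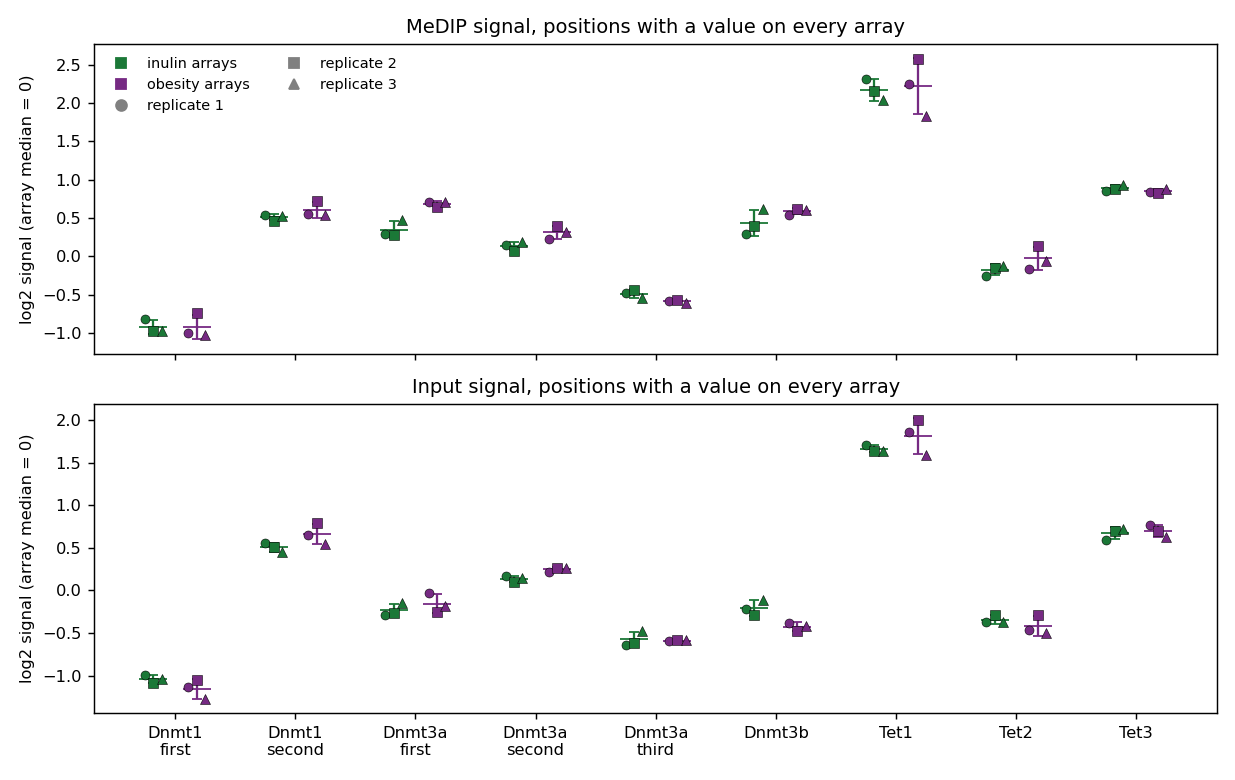
MeDIP signal (upper panel) and input signal (lower panel) of the 9 regions, log2 relative to the array median, over the positions with a value on every array, with inulin in green left of obesity in purple and the group mean and SD (n = 3). The MeDIP groups were apart at every Dnmt3a region and at the second Dnmt1 region, and overlapped elsewhere. Among these regions, only the most downstream Dnmt3a region had a higher MeDIP signal in the inulin group. The input groups were apart at Dnmt3b and at the second Dnmt3a region, and overlapped elsewhere. The share of all regions that were apart was not counted in this setting.

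The sign of the difference was stable at some members and not at others. The first Dnmt3a region, Dnmt3b and Tet2 were lower in the inulin group in all 19 alternatives tried, although Tet2 passed the threshold in none of them. The first Dnmt3a region passed in none of those that keep all obesity arrays in the contrast, and in 1 of the 2 scan-day fits, which rest on obesity array 2. Dnmt3b passed in 3 others, with loess, with the replicate block and over positions measured on every array, and in both scan-day fits. The smallest differences came with the authors' deposited table for the first Dnmt3a region (-0.083) and for Tet2 (-0.13), whose scale is not known, and with an equal scale for Dnmt3b (-0.096). The third Dnmt3a region was higher and the second lower in all 19, and neither passed. Tet3 kept its sign in 17, Tet1 in 16, the first Dnmt1 region in 18 and the second in 13.

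**Figure D5:**
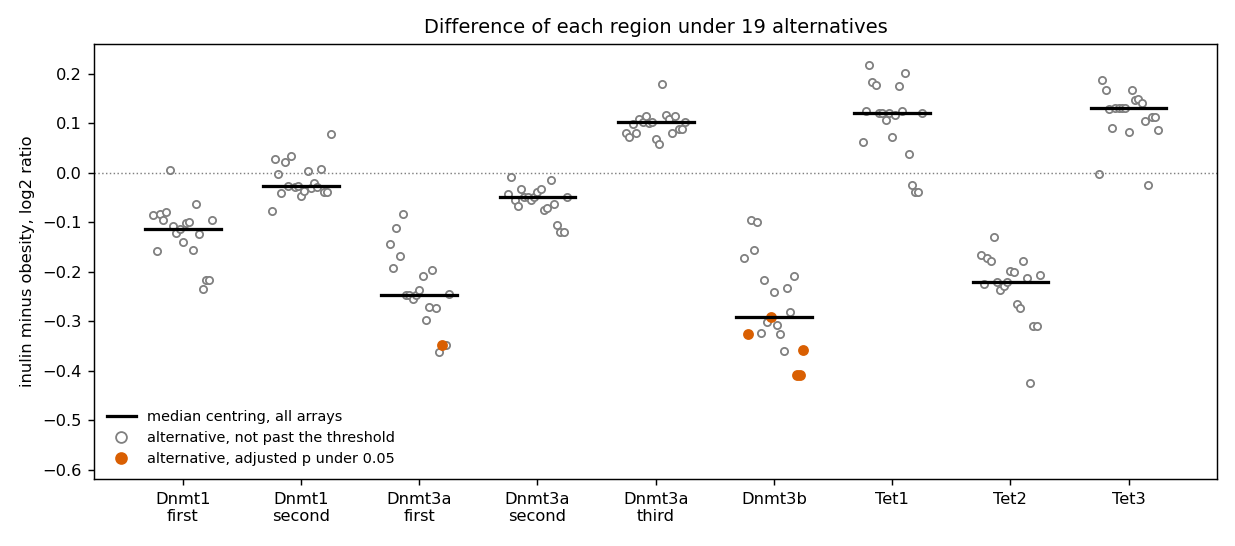
Difference of the log2 ratio, inulin minus obesity, of each region with median centring (black bar) and under 19 alternatives (points, orange where the adjusted p was under 0.05). The orange points belong to Dnmt3b and to the first Dnmt3a region, where the orange point and 2 of those of Dnmt3b are scan-day fits that rest on obesity array 2 alone.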

How the data were processed

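DNA methylation was measured on 6 two-colour arrays, 3 of each group. Per the file headers, the authors extracted the scans with Feature Extraction 11.0.1.1, and positions are in mm9. The deposited processed signals are intensity values, which per the file headers were background-subtracted and scaled by a dye factor. The other deposited columns used, also intensity, are raw medians of spot and background, with flags of 0 or 1. The authors' deposited table holds a score per position whose scale and centring are not given in the sources used here. It correlated with the log2 ratio of the same array at 0.866 to 0.910, so its direction is the same, and its medians per array were 0.043 to 0.061.

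Here, log2 ratios of red (MeDIP) over green (input) processed signal were taken, outlier spots were left out, and each array was centred on its median. A region was the mean of its positions, needed values on at least 2 arrays per group, and belonged to a gene where most of its positions lay in that gene's window. The comparison used limma 3.58.1 under R 4.3.3 (two-sided, lmFit with eBayes, Benjamini-Hochberg over all regions or positions, threshold 0.05). It was tried on simulated arrays with independent noise and no effect of slide or scan day, so that trial gives no error rate for these slides. Each channel was tested in the same way.

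Alternatives were normexp on the raw medians (offset 50), loess, equal scale, quantile normalization, the authors' table, filters on dim spots, slide and replicate blocks, each array left out, a gap of 1000 bp and the median of the positions. Scan day and positions measured on every array were added after seeing the data. Every region is given by its difference, and single positions are named where they passed the threshold or had the lowest p of a gene. The neighbours, the bright positions, the Dnmt3a position near the called one and a Dnmt3b position above background were chosen after their values were seen. So were the positions given to show how the channels of a region arose. Other genes of the pathway were not analysed here, since no annotation of mm9 was at hand. The members, lists and tests were chosen with earlier results of these data known. Figures were drawn with matplotlib 3.10.9.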

Additional observations from a re-analysis of the deposited data

How the results depend on the processing

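Member regions past the threshold numbered 0, and 1 with loess (2790 of all regions), 1 with the replicate block (2699), 2 with scan day as a block (3627), 1 within the first scan day (3639) and 1 over positions measured on every array (2344). Counts over all regions were 1978 with normexp, 1002 on an equal scale, 497 with quantile normalization, 582 in the authors' table, 1048 with input above background, 139 with both channels above background, 0 with slide as a random block, 733 with the median of the positions and 0 to 2171 without 1 array. Of all positions and of member positions, 27350 and 9 passed with normexp, 21136 and 6 after loess, 6038 and 1 with arrays equally scaled, 4598 and 0 with quantile, 4832 and 0 in the authors' table, 336 and 0 with slide, and 701 to 15200 and 0 to 2 without 1 array. With scan day as a block 26164 positions passed and within the first day 23748. In the MeDIP channel 115 regions passed with normexp, 0 with slide, 0 with the replicate block, 3518 with scan day, 2064 within the first day, 1685 (1 member, the first Dnmt3a region) over complete positions and 0 to 104 without 1 array. In the input channel these were 166, 136, 0, 1364, 739, 3983 and 6 to 188, with 228 under quantile. The ratio changed sign for the second Dnmt1 region (0.027 with loess, 0.021 in the authors' table, 0.033 with both channels above background, 0.0068 with the median, 0.078 over complete positions, -0.048 to 0.0037 without 1 array), the first Dnmt1 region (0.0061 with input above background), Tet1 (-0.025 with the median, -0.040 with scan day, -0.040 within the first day) and Tet3 (-0.0027 with normexp, -0.026 with the median). MeDIP differences changed sign for the first Dnmt3a region (-0.019 with quantile, -0.34 over complete positions, -0.069 to 0.36 without 1 array) and Dnmt3b (0.031 with normexp, -0.19 to 0.10 without 1 array), and without 1 array spanned -0.24 to 0.13 for Tet1 and -0.45 to 0.036 for Tet2. Input differences changed sign for the third Dnmt3a region (-0.023 with quantile, -0.014 with normexp, -0.037 to 0.044 without 1 array), and over complete positions for the first Dnmt1 region (0.11; -0.15 to 0.15 without 1 array), the first Dnmt3a region (-0.077), Tet2 (0.076; -0.21 to 0.25 without 1 array) and Tet3 (-0.025). Whether the replicate numbers pair the arrays was not settled. The deviations of same-numbered arrays correlated at -0.14, 0.28 and 0.33, and those of differently numbered arrays at -0.38 to 0.22. The replicate block gave 2 member positions past the threshold, and since the count over all positions in that fit is not given here, nothing is read from it. The cause of these shifts was not tested. Each setting without 1 array leaves 2 arrays in its group, and the first scan day has 1 obesity array, which is assumed to vary like the inulin arrays.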
